A study of Mus musculus with 5 samples.

Results

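The genes described here write, keep, oxidise or remove methyl groups on cytosine in DNA, or make the substrate that the oxidising enzymes need. They were chosen by name, namely Tet1, Tet2, Tet3, Dnmt1, Dnmt3a, Dnmt3b, Tdg, Idh1, Idh2 and Uhrf1, and all 10 were found among the 55291 gene symbols of each library. RNA sequencing counts were available for mouse bone marrow cells that the labels name as monocytes, with 3 wild-type libraries (replicates 1, 2 and 3) and 2 libraries of genotype Tet2 mutant (replicates 2 and 3, called M2 and M3 below). Nothing used here states the kind of Tet2 mutation, the cells that carry it, the sorting of the cells, the age and strain of the animals or any treatment. Nor is it stated whether each library is a separate animal, so the p-values stand for the spread among these libraries, which may be technical. Wild-type values are listed in the order of replicates 1, 2 and 3. The question put to the data was whether paralogues of Tet2 or the methyltransferases shift in each mutant library.

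DNA methyltransferases add a methyl group to cytosine, mostly where it is followed by guanine. Dnmt3a and Dnmt3b set new marks, while Uhrf1 binds DNA methylated on 1 strand behind the replication fork and brings in Dnmt1, which copies the marks to the new strand. The TET enzymes oxidise methylcytosine, using iron and 2-oxoglutarate, and Tdg cuts out the more oxidised bases so that repair can put back plain cytosine. Idh1 and Idh2 make 2-oxoglutarate, and mutant forms of them make 2-hydroxyglutarate, which blocks TET enzymes. Loss of TET2 or of DNMT3A is frequent in clonal haematopoiesis and myeloid leukaemia.

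Library totals ran from 53789308 to 72414875 counts in the wild type and were 17459808 and 60508381 in M2 and M3. Fewer genes had any count in the mutant libraries (18047 in M2 and 17944 in M3) than in the wild type (24532 to 26207), although the total of M3 lay within the wild-type range. This moves with the low counts of Tet1 and Dnmt3b described below, and its part in them was not tested. The 7 monocyte markers were detected in every library, with a summed level of 1189 to 1344 CPM (a gene's count set against the size of its library, which was adjusted by TMM, edgeR's scaling between libraries) in the wild type and of 2200 and 1050 CPM in M2 and M3. Markers of other cells differed between the groups and between the mutant libraries. The summed level of 7 B cell markers was 151 to 666 CPM in the wild type against 975 and 7553 CPM in M2 and M3, and that of 7 macrophage markers was 240 to 302 CPM against 4261 and 3126 CPM. The 8 neutrophil markers summed to 45448 to 56244 CPM in the wild type and to 51709 and 22879 CPM in the mutant, the 6 erythroid markers to 5249 to 14432 CPM against 12533 and 1909 CPM, and the 7 stem and progenitor markers to 112 to 141 CPM against 177 and 33.5 CPM. For 9 T and NK cell, 7 dendritic cell and 8 pancreatic acinar markers the wild-type sums were 67.4 to 158, 79.7 to 105 and 39.6 to 55.4 CPM, and the mutant sums were 991 and 744, 524 and 670, and 533 and 1237 CPM. The sums hide members on the other side. The NK cell marker Klrb1c was at 1.66 CPM in M2 and 1.55 CPM in M3 against a wild-type mean of 7.61 ± 4.84 CPM (SD, n = 3), and the plasmacytoid dendritic cell marker Siglech was at 8.63 and 1.16 CPM against 29.3 ± 4.21 CPM, neither passing the test. Ncr1, another NK cell marker, was below the wild-type range in M2. In the T and NK list 4 of 9 members were called higher, and in the dendritic cell list 3 of 7, against a background of 10.6% higher. The macrophage list had 7 of 7 called higher, the acinar list 7 of 7 tested, the B cell list 3 of 7 and the monocyte list 2 of 7. In the neutrophil list and the stem and progenitor list 0 were called, and in the erythroid list 1 of 6 was lower, against a background of 4.43% lower. The monocyte list was mixed too. Csf1r and Fcgr1 were called higher, while F13a1 was at 236 and 68.5 CPM against a wild-type mean of 395 ± 42.8 CPM (SD, n = 3), without passing the test. Of all these markers, Amy2a5 was at 0 counts in every library. All the others were detected in each library, so detection does not set the monocyte markers apart. Their part in the differences below was not tested, and in such libraries fewer cells of a type and less RNA per cell cannot be told apart. M2 held both Xist (27.4 CPM) and the Y-linked Ddx3y (14.7 CPM). Wild-type replicates 1 and 2 held Ddx3y (71.4 and 69.1 CPM) with Xist at 0.188 and 0.179 CPM, while wild-type replicate 3 and M3 held Xist (32.3 and 21.1 CPM) with Ddx3y at 0.163 and 1.22 CPM. M2 may therefore hold RNA of more than 1 animal, which was not tested, and its values are read with that limit. Ddx3y in M3 was also above that in wild-type replicate 3, for which the cause was not tested. The pattern of these sex-linked genes differs within the wild type and between the groups, and the part of sex in the differences was not tested. The 10 genes and the list counts are therefore also given for each mutant library alone, where the single library is assumed to vary like the wild type. These fits share the wild-type libraries and are not independent of each other.

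Among the 10 genes, Dnmt3a rose in the mutant, and no other passed an adjusted p of 0.05 with all 5 libraries (edgeR's quasi-likelihood F-test). Over the transcriptome 15.0% of 17062 tested genes were called, 10.6% higher and 4.43% lower, so a count of 1 in 10 is near the background. In the fit of M2 alone against the wild type 2 of the 10 were higher and 4 lower, where the background was 21.0% higher and 18.4% lower. In the fit of M3 alone 1 was higher and 6 were lower, against a background of 26.5% and 32.2%. Both mutant libraries lay below every wild-type library for 5 of the 10 genes (Tet1, Dnmt3b, Tdg, Idh2 and Uhrf1), as they did for 33.3% of all tested genes, and above every wild-type library for Dnmt3a, as for 22.9%. With none of the 10 called lower by edgeR, 3 were lower at an unadjusted p under 0.05 (Tet1, Dnmt3b and Tdg). So were 3182 of all 17062 tested genes. DESeq2 called those 3 lower, where it called 2377 of 18750 genes lower. limma-voom called Dnmt3b, Tet1 and Uhrf1 lower, where it called 1365 of 17062 genes lower.

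**Figure D1:**
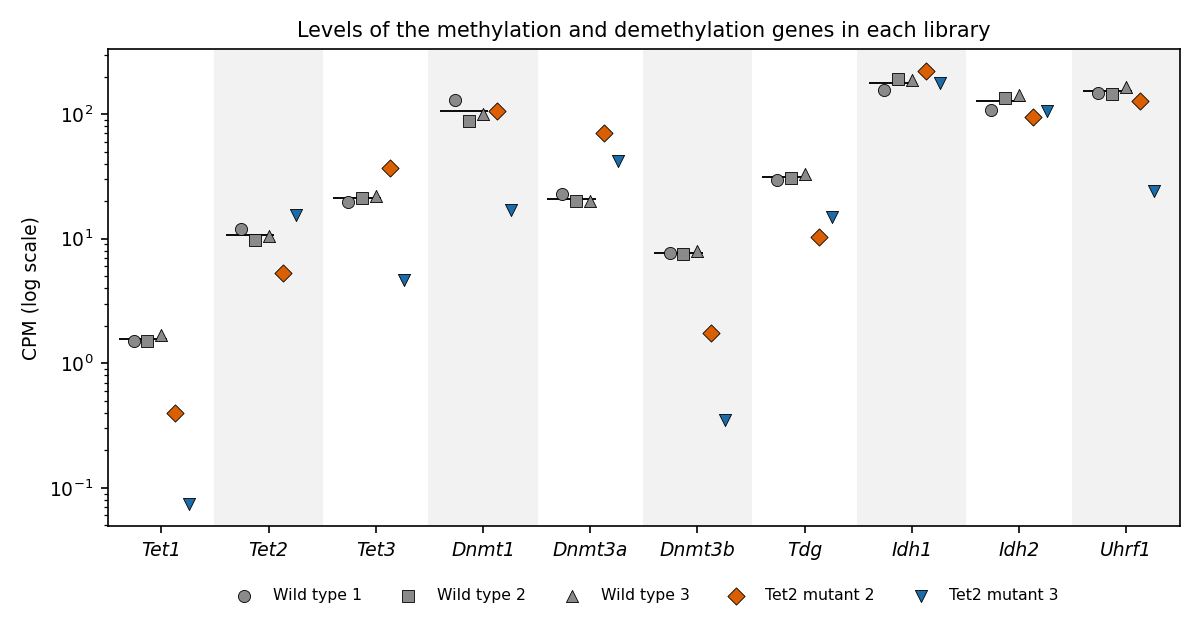
Level of each gene in CPM (log scale) in the 3 wild-type libraries (grey) and in M2 (orange) and M3 (blue), 1 point per library, with a line at the wild-type mean. Dnmt3a is above the wild type in both mutant libraries (70.8 and 41.9 CPM), Tet1 and Dnmt3b are far below it, and Tet2 and Tet3 leave it in opposite directions in the 2 mutant libraries.

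Tet2 (ENSMUSG00000040943.12, chromosome 3, 133463679 to 133545139, minus strand; identifiers and positions are those of GENCODE M21 on GRCm38) is the gene the genotype names and encodes the TET enzyme most often mutated in myeloid disease. The wild-type libraries held 11.9, 9.77 and 10.6 CPM of it, M2 held 5.31 CPM and M3 held 15.6 CPM. The mutant libraries thus fell on opposite sides of the wild-type range, M3 only just so on plain totals (13.93 against 11.32 to 13.89 CPM). The log2 fold change over both was -0.04 ± 0.58 (SE; adjusted p = 0.966), and its sign changed with RLE scaling (0.005). M2 alone was lower than the wild type (log2 fold change -1.02 ± 0.30, adjusted p = 0.0368), while M3 alone did not pass (0.53 ± 0.26, adjusted p = 0.113). M3 had 2.93 times the Tet2 level of M2, with a 95% counting interval of 2.28 to 3.82 (67 counts in M2 and 843 in M3). Counts over the whole gene do not show whether the altered part of Tet2 is transcribed, so they are no check of the genotype labels.

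Tet3 (ENSMUSG00000034832.15, chromosome 6, 83362373 to 83459084, minus strand), the paralogue with the most counts in the wild type, also left the wild-type range on opposite sides, each time on the side where Tet2 did not. Wild-type levels lay close together at 19.9, 21.2 and 22.2 CPM, while M2 held 36.8 CPM and M3 held 4.69 CPM. M2 was above and M3 below every wild-type library. With plain library totals as the scale, M2 was only just above the wild type (26.6 against 23.2 to 25.3 CPM), while M3 stayed below. The size of the rise in M2 thus depended on the scaling. The mean difference was close to 0 (log2 fold change -0.03 ± 0.74 SE, adjusted p = 0.977; 0.02 with RLE scaling), although each library alone passed, M2 higher by 0.80 ± 0.22 (adjusted p = 0.0302) and M3 lower at -2.17 ± 0.27 (adjusted p = 0.00141). The level in M2 was 7.86 times that in M3 (counting interval 6.73 to 9.19), and this ratio compares those libraries, not conditions.

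Tet1 (ENSMUSG00000047146.17, chromosome 10, 62804570 to 62908996), which is best known from embryonic stem cells, was the lowest of the 10 genes in every library. Wild-type levels were 1.51, 1.50 and 1.70 CPM (113, 126 and 104 counts), against 0.396 CPM in M2 (5 counts) and 0.0738 CPM in M3 (4 counts). No mutant value overlapped the wild type, but the test over both did not pass (log2 fold change -2.93 ± 1.04 SE, adjusted p = 0.0872). Each mutant library alone was lower, at -1.99 ± 0.50 for M2 (adjusted p = 0.0224) and -4.38 ± 0.57 for M3 (adjusted p = 0.00157). Between the mutant libraries the counts were too few for a narrow ratio, with a counting interval of 1.16 to 27.0 for M2 over M3.

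The make-up of the TET family can be read within a library, where scaling between libraries has no part. Tet2 made up 35.8%, 30.1% and 30.7% of the counts of the 3 TET genes in the wild type. In M2 it was 12.5% (95% Clopper-Pearson interval 9.80 to 15.6%), and in M3 it was 76.6% (74.0 to 79.0%). Tet3 held 59.7% to 65.3% in the wild type, 86.6% (83.4 to 89.4%) in M2 and 23.1% (20.6 to 25.7%) in M3. The share of Tet1 was 4.55% to 4.92% in the wild type, 0.931% in M2 and 0.363% in M3, with intervals for the mutant libraries of 0.303 to 2.16% and 0.0991 to 0.928%. So Tet3 was the leading TET transcript in the wild type and in M2, and Tet2 was in M3. The family shares of the genotypes were compared by an exact two-sided permutation test, whose smallest possible p with 3 against 2 libraries is 0.2. It gave 0.2 for Tet1 and 0.8 for both Tet2 and Tet3 (0.4, 0.8 and 0.8 after Benjamini-Hochberg adjustment over 6 shares).

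**Figure D2:**
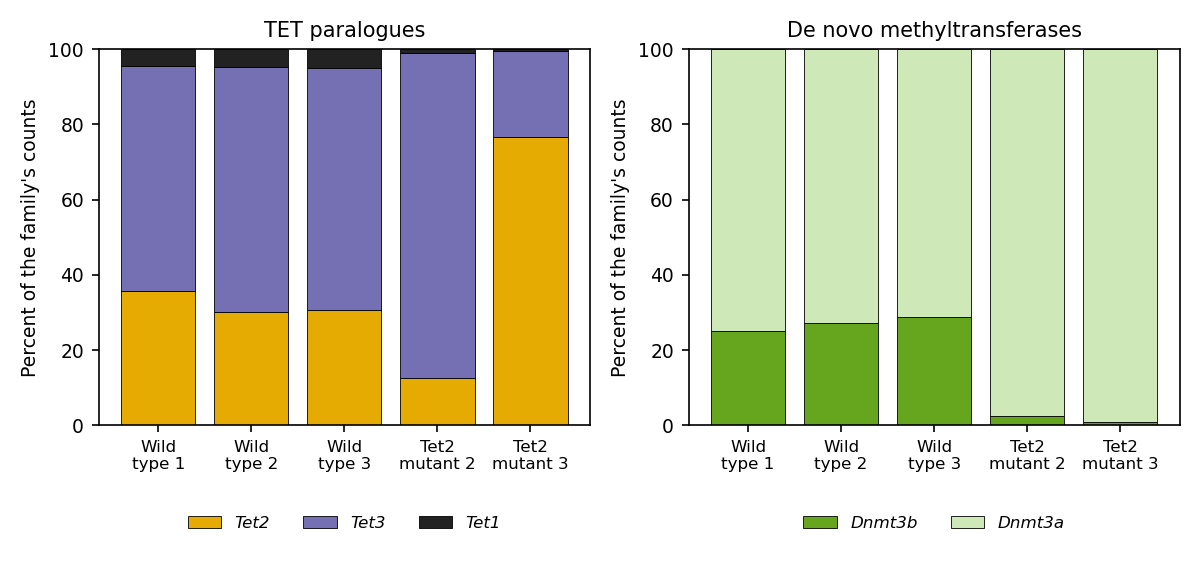
Percent of the counts of each family that came from each gene, 1 bar per library, for Tet1, Tet2 and Tet3 (left) and for Dnmt3a and Dnmt3b (right). Tet2 fills 30.1% to 35.8% of the left bars in the wild type, 12.5% in M2 and 76.6% in M3, and Dnmt3b almost vanishes from both mutant bars on the right.

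The de novo methyltransferases lay on opposite sides of the wild type. Dnmt3a (ENSMUSG00000020661.15, chromosome 12, 3806007 to 3914443) had wild-type levels of 22.7, 20.1 and 19.9 CPM, and reached 70.8 CPM in M2 and 41.9 CPM in M3, with no overlap. From a wild-type mean of 20.9 ± 1.57 CPM (SD, n = 3) to a mutant mean of 56.3 ± 20.4 CPM (SD, n = 2) the gene rose by 1.43 ± 0.34 on the log2 scale (SE; adjusted p = 0.0375). Each mutant library alone was higher too, M2 by 1.75 ± 0.21 (adjusted p = 0.00154) and M3 by 1.0 ± 0.21 (adjusted p = 0.008). The call was lost when any wild-type library was left out, with an adjusted p of 0.0828 (replicate 1), 0.088 (replicate 2) or 0.0876 (replicate 3). It was 0.0721 when libraries were scaled by their total counts alone (log2 fold change 0.88).

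Dnmt3b (ENSMUSG00000027478.15, chromosome 2, 153649450 to 153687730), the other de novo enzyme, held a steady 7.65, 7.52 and 8.01 CPM over the wild-type libraries. M2 held 1.74 CPM (22 counts) and M3 held 0.351 CPM (19 counts). The wild-type mean was thus 4.43 and 22.0 times the level in M2 and M3. The test over both did not pass (log2 fold change -2.94 ± 0.89 SE, adjusted p = 0.0622), while either mutant library alone was lower, at -2.15 ± 0.34 for M2 (adjusted p = 0.00492) and -4.46 ± 0.40 for M3 (adjusted p = 0.000591). As a share of the counts of Dnmt3a and Dnmt3b together, Dnmt3b made up 25.2%, 27.3% and 28.7% in the wild type, 2.40% in M2 (interval 1.51 to 3.62%) and 0.83% in M3 (0.501 to 1.29%). The difference of the means was -25.4 percentage points, and the exact permutation p was 0.2, the smallest that this design allows (adjusted p = 0.4). Of all pairs among the 10 genes, Dnmt3b and Tet1 had the most similar course over the 5 libraries, with a Euclidean distance of 0.409 in centred log2 CPM. This closeness is a description over 5 libraries.

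Maintenance methylation is carried by Dnmt1 (ENSMUSG00000004099.16, chromosome 9, 20907209 to 20959888) and its recruiter Uhrf1 (ENSMUSG00000001228.14, chromosome 17, 56303321 to 56323486), and both were lower in M3 while neither passed in M2. For Dnmt1 the wild-type levels were 131, 87.5 and 101 CPM, against 106 CPM in M2 and 17.0 CPM in M3. For Uhrf1 they were 149, 145 and 166 CPM, against 128 CPM in M2 and 24.4 CPM in M3. M2 sat inside the wild-type range for Dnmt1 (log2 fold change -0.01, adjusted p = 0.973) and below it for Uhrf1 (-0.27, adjusted p = 0.343). On plain library totals Dnmt1 too was below the wild type in M2 (76.5 against 101 to 153 CPM). Over both mutant libraries neither passed, with log2 fold changes of -0.80 ± 0.67 for Dnmt1 (adjusted p = 0.389) and -1.01 ± 0.61 for Uhrf1 (adjusted p = 0.241). M3 alone was lower for both, at -2.65 ± 0.33 for Dnmt1 (adjusted p = 0.00135) and -2.65 ± 0.25 for Uhrf1 (adjusted p = 0.000692). The level in M2 was 6.24 times that in M3 for Dnmt1 (counting interval 5.73 to 6.79) and 5.24 times for Uhrf1 (4.87 to 5.64). Uhrf1 made up 53.2% to 62.4% of the counts of the pair in the wild type and 54.7% and 59.0% in the mutant libraries, inside the wild-type range.

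Both genes are transcribed mainly in cells that copy their DNA, so 20 S phase genes were set beside them. Of these, 4 fell with all 5 libraries and none rose. That is 20.0% called, all lower, against a background of 15.0% in either direction and 4.43% lower. None was higher at an unadjusted p under 0.05 by edgeR or called higher by DESeq2 or limma-voom. The 4 that fell were Chaf1a, Chaf1b, Gins2 and Pola1, chosen for naming after their values were seen. Chaf1a, a subunit of the chromatin assembly factor, had a wild-type mean of 78.5 ± 4.26 CPM (SD, n = 3) and was at 20.0 CPM in M2 and 7.16 CPM in M3 (log2 fold change -2.54 ± 0.48, adjusted p = 0.0203). With wild-type replicate 1, 2 or 3 left out, 0, 1 or 1 S phase genes were called lower, and the fits of M2 alone and M3 alone called 8 and 18 of the 20 lower, where 18.4% and 32.2% of all genes were lower. With wild-type replicate 1, 2 or 3 left out, 6 of 16164, 18 of 16075 and 14 of 16550 genes were lower over the transcriptome. The median log2 fold change of the S phase list was -1.37, against -0.08 over all tested genes. M2 and M3 were both below the whole wild-type range for 16 of 20, against 33.3% of all genes. Their summed level was 0.67 of the wild-type mean in M2 and 0.24 in M3. The list included Rrm2 and Slbp, its most abundant members, which encode a subunit of the enzyme that makes DNA building blocks and the histone mRNA binding protein. Rrm2 was at 838 CPM in M2 and 154 CPM in M3, against 1180 to 1773 CPM among wild-type libraries (adjusted p = 0.123), and Slbp was at 685 CPM in M2 and 419 CPM in M3 against 618 to 928 CPM (adjusted p = 0.242). Relative to the summed S phase level, Dnmt1 was 2.38%, 1.30% and 1.38% in the wild type and 2.43% and 1.08% in M2 and M3. Uhrf1 was 2.71%, 2.16% and 2.26% in the wild type and 2.93% and 1.56% in the mutant. On this scale M3 was still the lowest library for both genes, and M2 the highest. Whether the S phase change accounts for that of Dnmt1 and Uhrf1 was not tested.

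**Figure D3:**
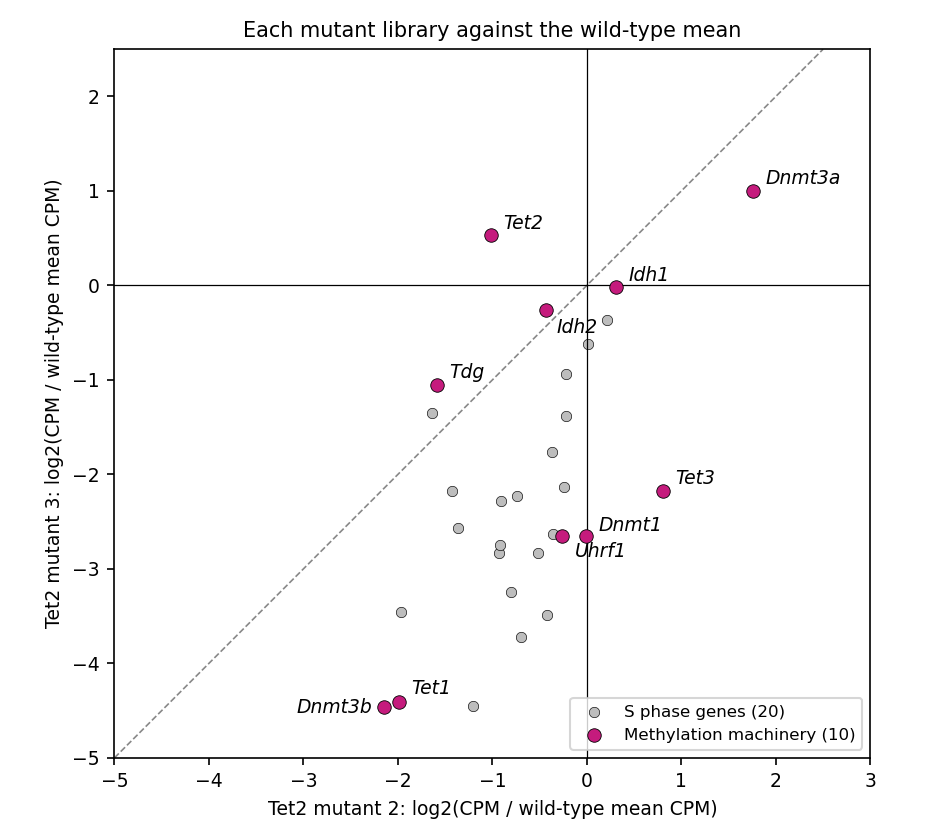
Log2 ratio of CPM to the wild-type mean in M2 (x axis) and M3 (y axis) for the 10 methylation genes (pink) and 20 S phase genes (grey), with a dashed line where both libraries are equal. Dnmt1 and Uhrf1 lie at -0.007 and -0.262 on the x axis and at -2.65 on the y axis. The S phase medians are -0.716 on the x axis and -2.42 on the y axis. Tet2 and Tet3 lie on opposite sides of the dashed line, and Dnmt3b and Tet1 lie together at the lower left.

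The promoters of Dnmt1 and Uhrf1 were read for sites of E2F, the factor family that switches on S phase genes, because this pair was low together in M3. Being low in M3 does not set this pair apart. Tet1, Tet3, Dnmt3b and Tdg were lower there too, at log2 fold changes of -4.38, -2.17, -4.46 and -1.05. Their promoters held none of the words searched. RefSeq promoters (GRCm38.p6, 250 bases before to 50 after each start) were found for all 10 genes, 16 promoters in all. The words searched on both strands were TTTCCCGC, TTTCGCGC, TTTGCCGC and TTTGGCGC. Such words were held by 2 of the 10 genes, Dnmt1 and Uhrf1, with no overlap between matches, against 2.6% of 27025 genes with a promoter in the table and 6 of the 17 S phase genes that have an entry. These are the 30-base stretches on the strand of the gene, with the word in capitals (the first Dnmt1 word and the search word TTTCGCGC are reverse complements):

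Dnmt1, chr9:20952824-20952853, minus strand, 219 bases before the start at 20952623: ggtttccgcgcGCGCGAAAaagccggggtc

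Dnmt1, chr9:20952574-20952603, minus strand, from base 34 after the same start: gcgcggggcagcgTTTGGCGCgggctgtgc

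Uhrf1, chr17:56304117-56304146, plus strand, 185 bases before the start at 56304313: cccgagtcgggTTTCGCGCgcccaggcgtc

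Both Dnmt1 words lie in untranslated or noncoding exon sequence of GENCODE M21 models, around the innermost of the Dnmt1 starts. The Dnmt1 promoters at starts further upstream held 0 words, as did the other Uhrf1 promoter. The Uhrf1 word lies in an intron of a gene model that begins further upstream, ahead of an inner start. The 250 bases before that inner start of Uhrf1 (chr17:56304063-56304312, plus strand) follow, with the same word in capitals, to show its setting in a stretch rich in CG pairs:

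Uhrf1: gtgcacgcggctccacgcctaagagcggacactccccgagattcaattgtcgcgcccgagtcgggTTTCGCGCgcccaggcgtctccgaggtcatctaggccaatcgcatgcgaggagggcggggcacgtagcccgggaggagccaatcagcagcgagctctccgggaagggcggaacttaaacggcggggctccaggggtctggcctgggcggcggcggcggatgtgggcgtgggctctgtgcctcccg

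A match describes letters in a window and shows no binding, and a link between the words and the levels was not tested. Every word searched contains a CG pair, and the share of 2.6% was not matched for CG pairs. The 2 promoters with words held 33 CG pairs each in 300 bases, in a range of 2 to 57 over the 16 promoters, with the highest in Tet2 and a median of 7 over all 32851 promoters of the table.

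Tdg (ENSMUSG00000034674.18, chromosome 10, 82629828 to 82650799), the glycosylase that removes oxidised methylcytosine, lay below the wild type in both mutant libraries. Wild-type levels were 29.4, 30.6 and 33.0 CPM, against 10.3 CPM in M2 and 15.0 CPM in M3, without overlap. The level in M3 was 1.45 times that in M2 (counting interval 1.21 to 1.76). The log2 fold change of -1.29 ± 0.37 just missed the threshold (adjusted p = 0.0539), with means of 31.0 ± 1.84 CPM (SD, n = 3) and 12.6 ± 3.30 CPM (SD, n = 2). It was called in 6 of 13 other settings, among them each mutant library alone (adjusted p = 0.0054 for M2 and 0.0096 for M3). Exons of Tdg overlap those of the gene Glt8d2 on the other strand by 367 bases. Since no source used here gives the strand setting of the counting, reads there cannot be told apart. Pseudogene copies of Tdg are also listed in the files, so its counts may be split. Dnmt3a and Tet2 share 133 and 43 exon bases with antisense transcripts in the same way.

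Idh1 (ENSMUSG00000025950.16, chromosome 1, 65158616 to 65186500), the cytosolic isocitrate dehydrogenase, and Idh2 (ENSMUSG00000030541.16, chromosome 7, 80094846 to 80115392), the mitochondrial form, were the most abundant of the 10 genes per length, and neither passed in any fit. Idh1 had wild-type levels of 156, 193 and 189 CPM, with 222 CPM in M2 and 177 CPM in M3. On plain library totals both mutant libraries were below the wild type (161 and 159 against 182 to 223 CPM). The log2 fold change was 0.16 ± 0.24 (adjusted p = 0.647), and its sign changed under upper-quartile scaling (-0.14) and plain totals (-0.37). Idh2 had wild-type levels of 108, 135 and 141 CPM, with 95.2 CPM in M2 and 107 CPM in M3, the latter just under the lowest wild-type library (log2 fold change -0.34 ± 0.25, adjusted p = 0.32). Idh1 was 57.2% to 59.1% of the counts of both genes in the wild type, and 70.0% (interval 68.6 to 71.5%) and 62.5% (61.7 to 63.2%) in M2 and M3. Both mutant shares were above every wild-type share, with an exact permutation p of 0.2, the smallest possible here (adjusted p = 0.4).

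Divided by exon length, the order of the wild-type levels was Idh1, Idh2, Uhrf1, Dnmt1, Tdg, Dnmt3b, Tet3, Dnmt3a, Tet2 and Tet1. In CPM per kilobase of exon the levels ran from 64.7 ± 7.30 (SD, n = 3) for Idh1 over 14.4 ± 3.01 for Dnmt1 and 5.77 ± 0.342 for Tdg to 0.637 ± 0.0637 for Tet2 and 0.102 ± 0.00708 for Tet1. Dnmt3a at 1.25 ± 0.0944 and Tet3 at 1.26 ± 0.0712 did not differ beyond their spread, while Dnmt3b stood at 1.51 ± 0.05. In both mutant libraries Dnmt3a came the fifth in this order and Dnmt3b took places 8 (M2) and 9 (M3), at 0.341 and 0.0687 CPM per kilobase. The lengths join the exons of all annotated transcripts, so the levels between genes are approximate.

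Among 8858 genes with a mean of 10 CPM or more, those with the course over the 5 libraries nearest to that of Tet2 were Heg1, Zmynd8 and Kctd18, at distances of 0.124, 0.137 and 0.139 in centred log2 CPM. Like Tet2, Heg1 was low in M2 and high in M3, at 5.55 and 16.4 CPM against 10.4 to 11.5 CPM in the wild type. Zmynd8 was at 13.5 and 38.9 CPM against 24.5 to 30.4 CPM. The gene for the chromatin remodeller Hells, which helps maintenance methylation, was the third nearest gene to Uhrf1 (distance 0.16) and was picked for mention after its values were seen. Wild-type libraries held 55.5, 57.3 and 56.5 CPM of Hells, M2 held 47.9 CPM and M3 held 8.69 CPM.

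The wider pathway was taken from 6 lists with 104 genes in all, of which 99 were tested. Of these, 9 rose, 3 fell and 87 did not pass, so that 12.1% were called against the background of 15.0%, and the median log2 fold change was -0.27 against -0.08 over all tested genes. Single libraries moved these counts, to 2 higher and 0 lower when wild-type replicate 1 was left out, 4 and 1 for replicate 2, and 4 and 0 for replicate 3. Over all genes the same fits gave 616 and 6, 870 and 18, and 842 and 14. For M2 alone 21 were higher and 24 lower, where the background was 21.0% and 18.4%. For M3 alone 16 were higher and 34 lower, where it was 26.5% and 32.2%. None of the 6 lists below is read as standing apart from the background of 15.0% called, which is that of edgeR. The background of DESeq2 was 3146 genes higher and 2377 lower of 18750. For limma-voom it was 1837 higher and 1365 lower of 17062. At an unadjusted p under 0.05 edgeR gave 3503 higher and 3182 lower of 17062.

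Partners of maintenance and of targeting gave 1 edgeR call among 16 tested genes (6.25%, background 15.0%), the rise of Kdm2b. DESeq2 called 2 higher and 0 lower there, and limma-voom 1 higher and 4 lower. Kdm2b encodes a demethylase of histone H3 that binds unmethylated CG-rich DNA, and had a wild-type mean of 14.7 ± 2.90 CPM (SD, n = 3), with 104 CPM in M2 and 42.3 CPM in M3 (log2 fold change 2.31 ± 0.43, adjusted p = 0.0199). Of 12 readers of methylated CG pairs, Zbtb4, a zinc finger protein that binds them, was the single one called by edgeR (8.33%, background 15.0%), from 1.74 ± 0.356 CPM (SD, n = 3) to 12.1 and 11.9 CPM (log2 fold change 2.78 ± 0.58, adjusted p = 0.027). DESeq2 called 2 readers higher and 1 lower, and limma-voom 1 higher. Among 13 tested partners of the TET enzymes none passed by edgeR, with 1 higher and 1 lower at an unadjusted p under 0.05, and DESeq2 and limma-voom each called 1 lower. Those with the smallest p were the ubiquitin ligase scaffold Cul4a (92.2 and 48.1 CPM against 140 to 173 CPM in the wild type, adjusted p = 0.0566) and the myeloid transcription factor Spi1, which can bring Tet2 to DNA (1246 and 757 CPM against 514 to 585 CPM, adjusted p = 0.0697).

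Downstream of Tdg, 1 of 17 tested repair genes rose and 1 fell, 11.8% against the background of 15.0%. DESeq2 called 1 higher and 2 lower, and limma-voom 1 higher and 4 lower. Polb, the polymerase that fills the gap left by base excision, rose from wild-type levels of 28.9, 37.4 and 34.6 CPM to 173 CPM in M2 and 111 CPM in M3 (log2 fold change 2.08 ± 0.29, adjusted p = 0.0074). Thus Polb lay above and Tdg, which did not pass, below the wild-type range in both mutant libraries. Gadd45a, a stress gene that has been linked to active demethylation, fell from 137 ± 16.5 CPM (SD, n = 3) to 49.7 and 23.1 CPM (log2 fold change -1.91 ± 0.38, adjusted p = 0.0238).

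Of 26 enzymes around 2-oxoglutarate and 2-hydroxyglutarate 4 rose and 1 fell, 19.2% against the background of 15.0%. DESeq2 called 5 higher and 3 lower, and limma-voom 4 higher and 2 lower. The malate dehydrogenases Mdh1 (cytosolic) and Mdh2 (mitochondrial) rose, Mdh1 by 2.01 ± 0.33 on the log2 scale (adjusted p = 0.0124; 589 CPM in M2 and 1164 CPM in M3, wild type 199.9 to 241 CPM) and Mdh2 by 0.96 ± 0.24 (adjusted p = 0.0431). Sdhb, a subunit of succinate dehydrogenase, rose by 1.42 ± 0.27 (adjusted p = 0.0209), and Got2, the mitochondrial aspartate aminotransferase, fell by 1.10 ± 0.29 (adjusted p = 0.0461). The remaining call was Idh3g, a subunit of the isocitrate dehydrogenase of the citrate cycle, which fell outside the naming rule and was added after its values were seen. Idh3g had a wild-type mean of 159 ± 13.6 CPM (SD, n = 3), with 293 CPM in M2 and 275 CPM in M3 (log2 fold change 0.84 ± 0.22, adjusted p = 0.0476). In the cycle that supplies methyl groups, 2 of 16 tested genes rose and 1 fell, 18.8% against the background of 15.0%. DESeq2 and limma-voom each called 2 higher and 3 lower. Ahcyl2, a relative of the enzyme that clears S-adenosylhomocysteine, had 31.9, 25.6 and 27.1 CPM in the wild-type libraries, 68.4 CPM in M2 and 68.7 CPM in M3 (log2 fold change 1.28 ± 0.28, adjusted p = 0.03). Mat2b, the regulatory subunit of the enzyme that makes S-adenosylmethionine, rose by 0.97 ± 0.23 (adjusted p = 0.0363). Mtr, methionine synthase, fell by 1.77 ± 0.42 (adjusted p = 0.0382), to 7.76 and 6.04 CPM from 19.3 to 26.0 CPM.

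**Figure D4:**
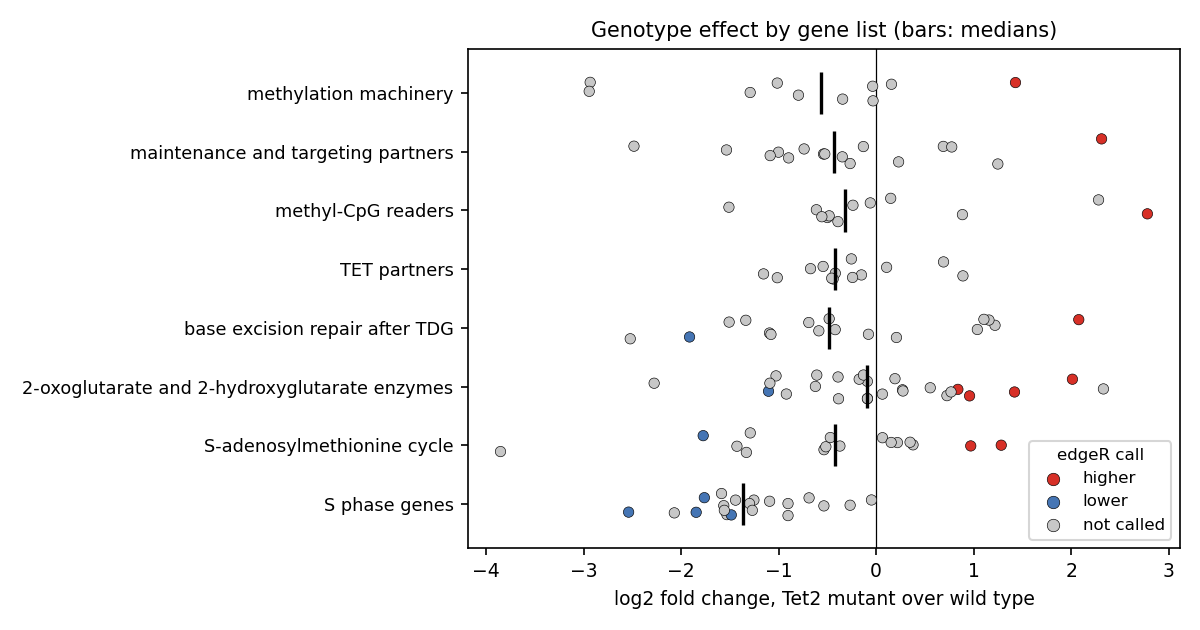
Log2 fold change (Tet2 mutant against wild type) for each tested gene of the 10 methylation genes, the 6 pathway lists and the S phase list, 1 point per gene and a bar at each list's median, with genes called by edgeR in red (higher) or blue (lower). The S phase genes lie lowest, with a median of -1.37, and each other list spans both sides of 0.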

How the data were processed

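The deposited files hold raw counts per gene symbol, 1 file for each of 5 libraries. RNA was purified on RNeasy columns and made into SMARTer mRNA-Seq libraries, per the labels' protocols. The authors trimmed reads with Trimmomatic and aligned them to mm10 with STAR, per the submitters' processing notes. No source used here gives the counter, the annotation or the strand setting. Amplified reads were counted without molecular identifiers, so intervals cover counting error only.

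The counts were fitted with edgeR 4.0.16 in R 4.3.3 (filterByExpr, 17062 genes kept, all 10 genes described here among them; TMM; quasi-likelihood F-test, Benjamini-Hochberg adjustment over all tested genes, threshold 0.05). CPM uses TMM-adjusted library sizes, and an SE is the log2 fold change over the square root of F. limma 3.58.1 (voom), DESeq2 1.42.0, other scalings and filters, a replicate block, and each library left out were alternatives. Gene lengths and positions came from GENCODE M21 (GRCm38).

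Genes and lists were chosen with earlier results of these data known. The names printed are all 10 genes, up to 4 called genes per pathway list (or 2 by unadjusted p), the most abundant S phase genes and the 3 nearest to Tet2. Replicate numbers 2 and 3 occur in both genotypes. Same-numbered libraries correlated at -0.03 and -0.02 after removal of genotype means, which with 2 mutant libraries mirrors the crossed values.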

Additional observations from a re-analysis of the deposited data

How the results depend on the processing

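Dnmt3a kept its direction in all 13 other settings (log2 fold change 0.88 to 1.75) and lost its call in 5, namely total counts, the replicate block (1.45) and each wild-type library left out. Counts below are genes called higher and lower. With total counts as scale, which moved the median log2 fold change by -0.50, they were 0 and 3 of the 10 genes, 5 and 24 of the pathway lists and 1181 and 2877 of all genes (29.1% higher against 70.5%), and 15 S phase genes were lower. With upper-quartile scaling (median moved by -0.27) they were 1 and 2, 5 and 16, and 1419 and 1837 (43.6% higher), with 11 S phase genes lower. Without a filter they were 1 and 2, 11 and 13, and 3059 and 1498, with 15 S phase genes lower. With 1 CPM required in 3 libraries they were 1 and 1, 8 and 6, and 1395 and 472. DESeq2 gave 1 and 3, 12 and 10, and 3146 and 2377 (57.0% higher), with 7 S phase genes lower, and limma-voom gave 1 and 3, 9 and 14, and 1837 and 1365 (57.4% higher), with 14.

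The shared replicate numbers name libraries and were not found to pair them. With the number as a replicate block, on 1 residual degree of freedom, 0 of the 10 genes were called, 3 pathway genes were higher and 5 lower, 752 genes in all were higher and 232 lower, and 12 S phase genes were lower.

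With each library left out in turn the counts ranged from 0 to 2 higher and 0 to 6 lower for the 10 genes, 2 to 21 and 0 to 34 for the pathway lists, and 616 to 4904 and 6 to 5958 for all genes, and 0 to 18 S phase genes were lower. The fewest came without wild-type replicate 1, at times equalled by another wild-type library, and most without M2, apart from the higher calls of the 10 genes and of the pathway lists, where most came without M3. Tet2 changed sign with RLE scaling (0.005), DESeq2 (0.005) and limma-voom (0.055), and over the left-out libraries ran from -1.02 to 0.53. Tet3 changed sign with RLE (0.018) and ran from -2.17 to 0.80. Idh1 changed sign with upper-quartile scaling (-0.145) and total counts (-0.372), and ran from -0.015 to 0.361. The difference in share ran from -19.7 to 44.4 percentage points for Tet2 and from -40.1 to 23.5 for Tet3. The causes were not tested, beyond fewer libraries.

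A level of 3 counts is 0.238 CPM in M2 and 0.0554 CPM in M3. Tet1 and Dnmt3b lie above it in both, on 4 to 22 counts a library.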
